A study of Mus musculus with 6 samples.

Results

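Expression of the interleukin-1 (IL-1) family ligands and receptors was examined in the RNA-Seq data of cultured bone marrow (BM) MSCs. The 10 genes were chosen by name from the 56980 genes of the deposited table and kept apart by role. They comprised 4 agonists (*Il1a*, *Il1b*, *Il18* and *Il33*), 2 secreted inhibitors (*Il1rn* and *Il18bp*), 1 decoy receptor (*Il1r2*) and 3 signalling receptors or receptor subunits (*Il1r1*, *Il1rap* and *Il1rl1*). All 10 were in the table, and 9 of them passed the low-count filter. Compared to the TranspCtrl group, *Il1b*, *Il1r1*, *Il1r2* and *Il1rl1* were lower in the TranspExer group, *Il1rn* was slightly higher, and *Il1a*, *Il18*, *Il18bp* and *Il1rap* did not pass the test.

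As background, IL-1α and IL-1β bind the same receptor, IL1R1, which recruits the accessory protein IL1RAP and signals through MYD88 and IRAK kinases to NF-κB and MAP kinases. The receptor antagonist encoded by *Il1rn* occupies IL1R1 without signalling, and IL1R2 binds IL-1 but lacks the signalling domain. IL-33 acts through IL1RL1 (also called ST2) with the same accessory protein, and IL-18 acts through its own receptor and is neutralized by IL18BP. In bone, IL-1 is known as a stimulus of osteoclast formation and bone resorption, including the bone loss that follows estrogen deficiency.

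The comparison asked which transcripts differed in BM MSCs after FMT from exercised rather than sedentary donors. The 3 TranspCtrl and 3 TranspExer samples came from mouse marrow. All recipients underwent OVX at 8 weeks of age, received antibiotics for 1 week and then FMT for 8 weeks, so that OVX, antibiotics and FMT were common to both groups. Flushed marrow was cultured for 7 days with no sorting step described. The strain is not given in the sources used here. The sample labels do not say whether the samples were separate animals or pools, so p-values measure the spread between these samples, which may be technical. In such bulk samples, fewer cells of a type and less RNA per cell cannot be told apart.

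The authors' table held estimated counts, which were rounded, scaled by edgeR's TMM method to CPM (counts relative to the size of the library) and tested with edgeR's quasi-likelihood test. Genes passed at a Benjamini-Hochberg adjusted p-value under 0.05 over 15190 genes, and DEGs also had a fold change of at least 2. Total counts ranged from 17647638 to 21319166 per sample, and 3 counts, the floor used here, corresponded to 0.139 to 0.174 TMM-scaled CPM, covering counting error only. TranspCtrl replicate 1 stood apart from the other samples of its group, at 29.7 on the second principal component against -22.7 and -19. Of all tested genes, 15.5% passed as lower in the TranspExer group and 16.6% as higher, and the DEG thresholds were met by 5.28% and 3.5%. No sample of the TranspExer group reached the lowest TranspCtrl sample for 25.1% of tested genes, and every sample of the TranspExer group lay above the highest TranspCtrl sample for 27.2%. The labelled cell type was checked against markers. The stromal markers *Pdgfra*, *Pdgfrb* and *Col1a1* were present in every sample, but so were the macrophage markers *Csf1r*, *Adgre1* and *Cd68*, with *Csf1r* between 857 and 966 CPM, so the cultures were mixed by these markers.

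Against that background, 4 of the 9 tested members were lower and 1 was higher, and 4 passed in neither direction. These were also the only members whose groups did not overlap, with 4 members lying entirely lower and 1 entirely higher. *Il1b* was a DEG, and no member was a DEG in the other direction. The median log2 fold change was 0.07 over the tested members and -0.02 over all tested genes. The 4 lower members had log2 fold changes of -1.88 to -0.61 and the other 5 of 0.07 to 0.28. The scaling moved the balance of calls over all genes. With TMM, 2361 genes were lower and 2523 higher, whereas upper-quartile scaling gave 2901 and 2052 and scaling by library size alone 2962 and 2013, with the median over all genes moved to -0.1 in both. The 4 lower members passed under these scalings as well, and *Il1rn* did not. The plot of CPM by sample shows all 10 members.

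**Figure D1:**
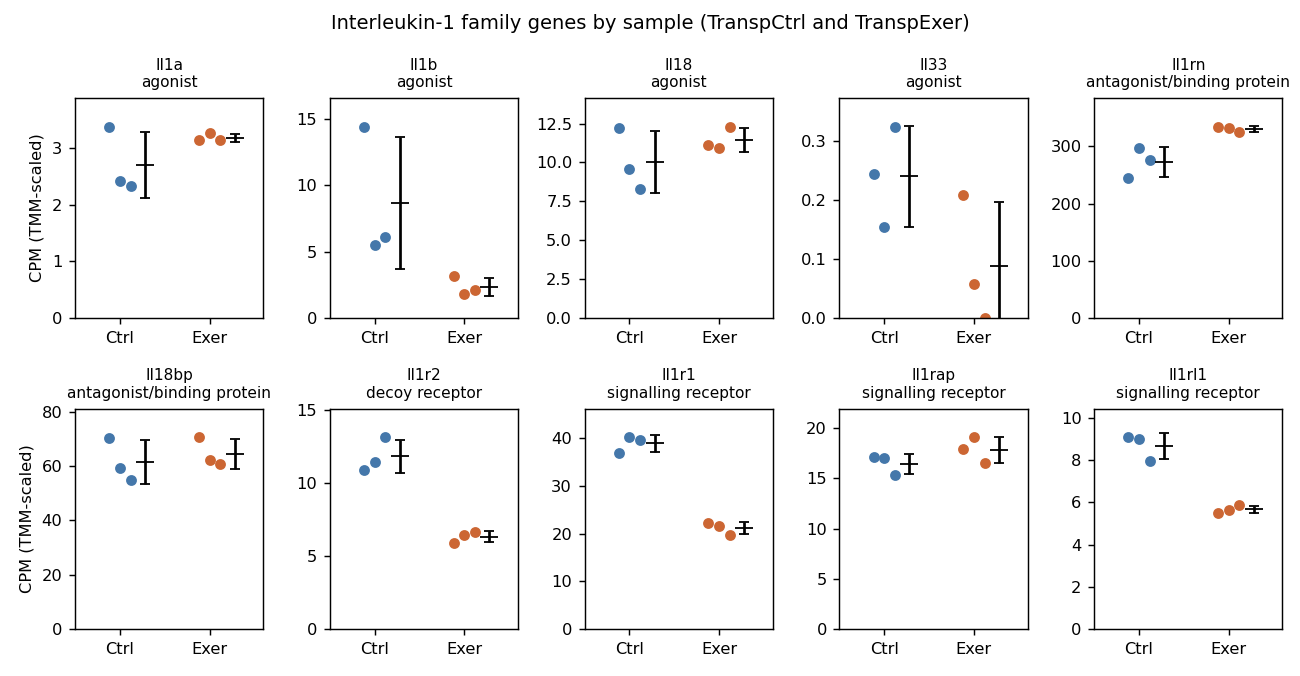
CPM of each member in the 3 TranspCtrl (blue, Ctrl) and 3 TranspExer (orange, Exer) samples, each panel with its own axis from 0. Points are samples in replicate order, and the black bar is the mean with its SD (n = 3). The groups are apart for Il1b, Il1r2, Il1r1 and Il1rl1, which are lower in TranspExer, and for Il1rn, which is higher.

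The agonists differed among themselves. *Il1b* (ENSMUSG00000027398, chr2:129364570-129371139, minus strand, GRCm38) encodes IL-1β, a cytokine made as an inactive precursor mainly by activated myeloid cells. Read in replicate order, TranspCtrl had counts of 294, 107 and 132 (14.4, 5.49 and 6.14 CPM), and TranspExer had 60, 31 and 42 (3.14, 1.8 and 2.09 CPM). TranspCtrl replicate 1 was the highest sample by far, and the lowest TranspCtrl sample was still above all TranspExer samples. The group means were 8.66 ± 4.94 CPM in TranspCtrl and 2.34 ± 0.704 CPM in TranspExer (SD, n = 3 each), a fall to 27.2% of the TranspCtrl level (95% interval 14.1 to 52.3). The log2 fold change was -1.88 (standard error 0.41, edgeR adjusted p = 0.0114). Without TranspCtrl replicate 1 it was -1.31 (adjusted p = 0.00036), and the call was lost without TranspExer replicate 2 (adjusted p = 0.0533) or TranspExer replicate 3 (adjusted p = 0.0588).

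*Il1a* (ENSMUSG00000027399, chr2:129299610-129309972, minus strand) encodes IL-1α, which is active without cleavage and is released by damaged cells. It lies 54.6 kb from *Il1b* on the same strand. Its values were 3.37, 2.41 and 2.32 CPM in TranspCtrl and 3.14, 3.25 and 3.13 CPM in TranspExer. The groups overlapped because TranspCtrl replicate 1 was again the highest. The log2 fold change was 0.23 (95% interval -0.23 to 0.69, edgeR adjusted p = 0.402), so *Il1a* did not pass, and its interval did not reach the estimate for *Il1b*. Per kilobase of exon (RPKM), *Il1b* was at 2.88 to 7.53 and *Il1a* at 1.18 to 1.71 in the TranspCtrl samples, whereas in the TranspExer samples *Il1b* was at 0.945 to 1.65 and *Il1a* at 1.59 to 1.65. Antisense gene models share 222 exonic bases with *Il1a* and 25 with *Il1b*, and their mean counts were 6.5 and 1.67. Whether the counting used strand is not given in the sources used here.

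The 250 bases before the start of both genes are shown because these neighbouring agonists did not change alike (RefSeq, GRCm38.p6, minus strand, 5′ to 3′). Capitals mark TATAAA, and in *Il1a* also GAGGAA, the core of a PU.1 site. The *Il1b* window is chr2:129371140-129371389 and the *Il1a* window chr2:129309973-129310222.
Il1b: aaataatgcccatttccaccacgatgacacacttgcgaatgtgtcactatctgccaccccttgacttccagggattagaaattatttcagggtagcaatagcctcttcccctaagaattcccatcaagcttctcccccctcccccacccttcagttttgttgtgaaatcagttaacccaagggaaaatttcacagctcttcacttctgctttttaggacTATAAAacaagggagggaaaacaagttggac
Il1a: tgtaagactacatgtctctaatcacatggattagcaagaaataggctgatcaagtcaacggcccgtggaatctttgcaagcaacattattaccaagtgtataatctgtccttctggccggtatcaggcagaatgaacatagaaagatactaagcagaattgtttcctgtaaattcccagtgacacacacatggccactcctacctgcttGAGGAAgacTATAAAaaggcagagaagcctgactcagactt
TATAAA began 31 bases before the start of *Il1b* and 32 bases before that of *Il1a*. GAGGAA was found in *Il1a* alone among the members, ending 36 bases before its start. On both strands, TATAAA occurred in the windows of 14.3% and GAGGAA in those of 25.9% of 27025 genes. Windows of all 10 members were in the table, and TATAAA was found for 4 of them (*Il18*, *Il1a*, *Il1b* and *Il33*).

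*Il18* (ENSMUSG00000039217, chr9:50554827-50581840, plus strand) encodes IL-18, which like IL-1β is matured by caspase-1. It measured 12.2, 9.6 and 8.32 CPM in TranspCtrl and 11.1, 10.9 and 12.3 CPM in TranspExer. The groups overlapped, and the log2 fold change was 0.19 (95% interval -0.16 to 0.55, edgeR adjusted p = 0.364). Without TranspCtrl replicate 1 it was 0.36 (adjusted p = 0.0289), the only setting in which *Il18* passed. *Il33* (ENSMUSG00000024810, chr19:29925114-29960718, plus strand) encodes an alarmin stored in the nucleus. Its counts were 5, 3 and 7 in TranspCtrl and 4, 1 and 0 in TranspExer, 15 against 5 in total. These counts were near the floor and below the low-count filter, so no difference was detectable at this depth. Without the filter, *Il33* had an unadjusted edgeR p of 0.151 and an adjusted p of 0.376.

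Of 16 macrophage, monocyte and neutrophil markers, 5 were lower, as *Il1b* was, and 3 were higher. Over all tested genes, 15.5% were lower and 16.6% higher. The summed level of 8 macrophage and monocyte markers was 7580 to 11800 CPM in TranspCtrl and 5620 to 6130 CPM in TranspExer, with 3 markers lower and 2 higher. *Lyz2*, which encodes lysozyme, was 9100 CPM in TranspCtrl replicate 1, against 4900 and 5240 CPM in the other TranspCtrl samples and 2600 to 3240 CPM in TranspExer. The lower sum rested on *Lyz2* alone, since the other 7 markers summed to 2610 to 2700 CPM in TranspCtrl and 2890 to 3050 CPM in TranspExer, the opposite direction, and the median log2 fold change of the list was -0.01. *Ccr2* (log2 fold change -0.68, edgeR adjusted p = 0.00135) and *Mrc1* (-0.33, 0.0159) were lower as well, whereas *Ly6c2* (0.59, 0.00132) was higher. Of the defining markers, *Csf1r* (log2 fold change 0.07, edgeR adjusted p = 0.511) and *Adgre1* (0.16, 0.189) did not pass, and *Cd68* rose by 0.78 (0.000377). The summed level of 8 neutrophil markers was 2210 CPM in TranspCtrl replicate 1 and 1170 to 1730 CPM in all other samples, with 2 markers lower and 1 higher. The part of these markers in the *Il1b* result was not tested.

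The secreted inhibitors had the highest levels per length among the members. *Il1rn* (ENSMUSG00000026981, chr2:24336853-24351494, plus strand) encodes the IL-1 receptor antagonist. It measured 244, 296 and 276 CPM in TranspCtrl and 334, 332 and 324 CPM in TranspExer, and every TranspExer sample was above every TranspCtrl sample. The group means were 272 ± 26.3 CPM in TranspCtrl and 330 ± 5.32 CPM in TranspExer (SD, n = 3 each), a rise to 121% of the TranspCtrl level (95% interval 105 to 140). The log2 fold change was 0.28 (standard error 0.09), and *Il1rn* passed narrowly (edgeR adjusted p = 0.0484). The call was lost in 10 of 13 alternatives, with log2 fold changes of 0.2 to 0.35 throughout. The adjusted p was 0.0302 with DESeq2, which kept the call. It was 0.0731 with upper-quartile scaling and 0.143 without TranspExer replicate 2, where the call was lost.

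*Il18bp* (ENSMUSG00000070427, chr7:102014885-102018690, minus strand) encodes the soluble protein that neutralizes IL-18. It measured 70.5, 59.2 and 54.9 CPM in TranspCtrl and 70.6, 62.2 and 60.6 CPM in TranspExer. The groups overlapped almost entirely, and the log2 fold change was 0.07 (95% interval -0.19 to 0.32, edgeR adjusted p = 0.666), with a sign that changed under 4 alternatives. *Il18bp* shares 80 exonic bases with *Numa1* on the opposite strand, whose mean count was 2600, so its level is uncertain if strand was not used.

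Ratios of counts within a sample, which were not corrected for gene length, do not rest on scaling between libraries. In replicate order, the TranspCtrl samples held 17, 53.8 and 45 times as many *Il1rn* as *Il1b* counts, and the TranspExer samples 106, 184 and 155 times as many. The groups did not overlap, and the mean log2 ratio was 2.06 higher in TranspExer, a 4.16-fold difference. The exact two-sided permutation test gave p = 0.1, the smallest it allows with 3 samples per group, so it cannot pass the threshold. Most of the difference came from *Il1b*, whose log2 fold change was -1.88 against 0.28 for *Il1rn*. For *Il18bp* over *Il18* the ratios were 5.8, 6.17 and 6.6 in TranspCtrl and 6.36, 5.7 and 4.92 in TranspExer. These overlapped, with a log2 difference of -0.13 (exact permutation p = 0.4).

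**Figure D2:**
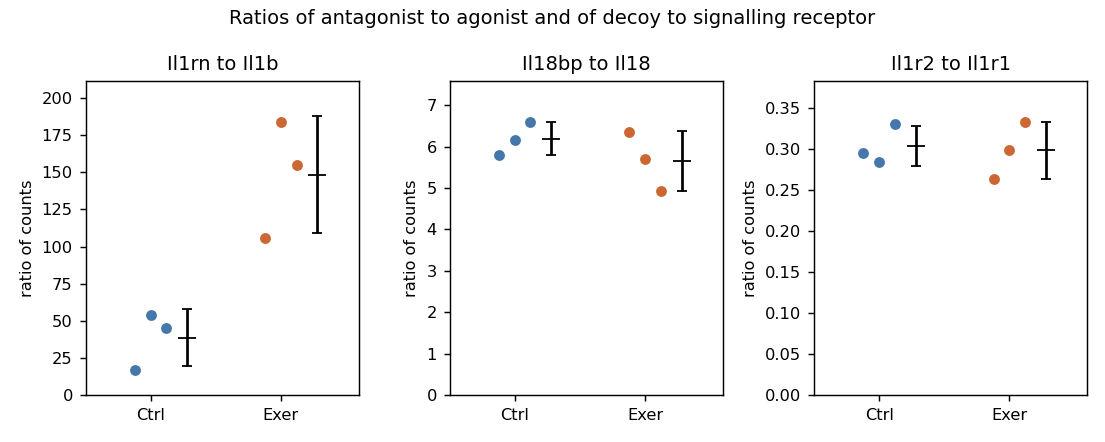
Ratios of rounded counts within each sample, for Il1rn to Il1b, Il18bp to Il18 and Il1r2 to Il1r1, in the 3 TranspCtrl (blue) and 3 TranspExer (orange) samples. Axes are linear and start at 0, and the black bar is the mean with its SD (n = 3). The Il1rn to Il1b ratio is 17 to 53.8 in TranspCtrl and 106 to 184 in TranspExer, and the groups overlap in the other panels.

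The decoy receptor and the signalling receptor for IL-1 fell by similar amounts. *Il1r1* (ENSMUSG00000026072, chr1:40225080-40317257, plus strand) encodes the signalling receptor. It measured 36.9, 40.2 and 39.7 CPM in TranspCtrl and 22.3, 21.6 and 19.8 CPM in TranspExer. The samples lay close together within each group and the groups were well apart. The group means were 38.9 ± 1.76 CPM in TranspCtrl and 21.2 ± 1.27 CPM in TranspExer (SD, n = 3 each), a fall to 54.5% of the TranspCtrl level (95% interval 47.6 to 62.5). The log2 fold change was -0.88 (standard error 0.09, edgeR adjusted p = 0.000335), below the fold of 2 required of a DEG.

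*Il1r2* (ENSMUSG00000026073, chr1:40074079-40125231, plus strand) encodes the decoy receptor. It measured 10.9, 11.4 and 13.1 CPM in TranspCtrl and 5.86, 6.45 and 6.61 CPM in TranspExer. The groups did not overlap. The group means were 11.8 ± 1.16 CPM in TranspCtrl and 6.31 ± 0.394 CPM in TranspExer (SD, n = 3 each), a fall to 53.4% of the TranspCtrl level (95% interval 43.8 to 65.2). Its log2 fold change was -0.9 (standard error 0.12, edgeR adjusted p = 0.00156). The ratio of *Il1r2* to *Il1r1* counts was 0.295, 0.284 and 0.331 in TranspCtrl and 0.263, 0.299 and 0.333 in TranspExer. These values overlapped, with a log2 difference of -0.02 (exact permutation p = 1), which with 3 samples per group does not show that the receptors changed alike.

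*Il1rl1* (ENSMUSG00000026069, chr1:40429570-40465415, plus strand) encodes the IL-33 receptor chain, which also exists as a soluble decoy form that gene counts do not separate. It measured 9.08, 8.98 and 7.95 CPM in TranspCtrl and 5.49, 5.64 and 5.86 CPM in TranspExer, again without overlap. The group means were 8.67 ± 0.627 CPM in TranspCtrl and 5.66 ± 0.186 CPM in TranspExer (SD, n = 3 each), a fall to 65.4% of the TranspCtrl level (95% interval 53.8 to 79.4). The log2 fold change was -0.61 (standard error 0.12, edgeR adjusted p = 0.0077). All of these receptor calls were kept in each alternative except the test of the fold of 2 within the model.

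*Il1rap* (ENSMUSG00000022514, chr16:26581704-26730117, plus strand), the accessory chain that IL1R1 and IL1RL1 share, did not follow its partners. It measured 17.1, 17 and 15.3 CPM in TranspCtrl and 17.9, 19.1 and 16.5 CPM in TranspExer. The groups overlapped, and the log2 fold change was 0.11 (95% interval -0.12 to 0.35, edgeR adjusted p = 0.421), an interval that does not reach those of *Il1r1* (-1.07 to -0.68), *Il1r2* (-1.19 to -0.62) or *Il1rl1* (-0.89 to -0.33). *Il1rap* shares 552 exonic bases with an antisense gene model that had no counts. The plot of fold changes sets the tested members side by side.

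**Figure D3:**
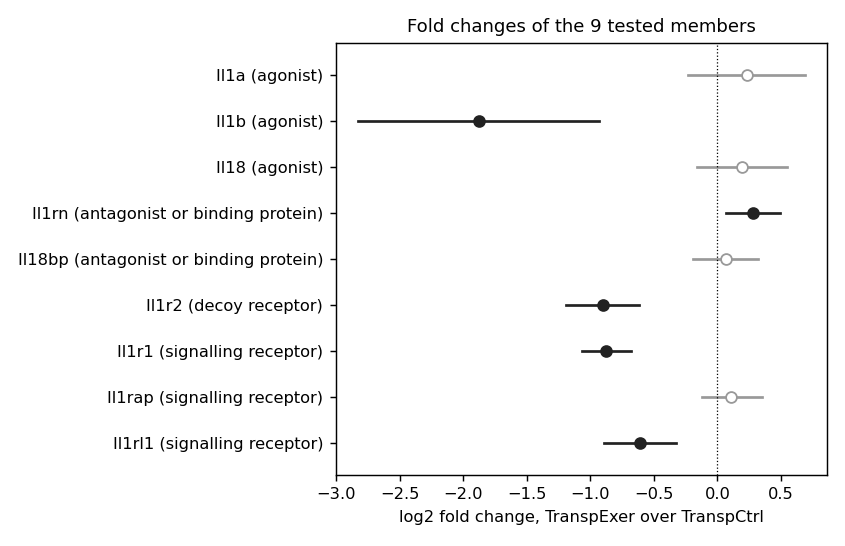
Log2 fold change of the 9 tested members, TranspExer over TranspCtrl, with 95% intervals from edgeR. Black filled points passed at an adjusted p-value under 0.05 and grey open points did not. Il1b, Il1r2, Il1r1 and Il1rl1 lie below 0, Il1rn lies above it at 0.28, and the others span 0.

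Most stromal markers were lower, as were *Il1r1*, *Il1r2* and *Il1rl1* but not *Il1rap*. The marker counts that follow stand beside 15.5% of all tested genes that were lower and 16.6% that were higher. Of 8 stromal markers, 6 were lower and 1 higher in TranspExer, with *Pdgfra* at a log2 fold change of -1.0 (edgeR adjusted p = 7.67e-05), *Pdgfrb* at 0.39 (0.0237) and *Col1a1* at -0.16 (0.674). Their summed level was 6630 to 12100 CPM in TranspCtrl and 8320 to 9250 CPM in TranspExer, and most of it was *Col1a1*, which was lowest in TranspCtrl replicate 1. Without *Col1a1*, the other 7 stromal markers summed to 2070 to 2140 CPM in TranspCtrl and 1520 to 1540 CPM in TranspExer, with no overlap. Osteoclast markers were lower in 6 of 8 cases and higher in 2, with sums of 894 to 907 CPM against 587 to 606 CPM, and 5 of 7 tested B and plasma cell markers were lower, with sums of 1710 to 2030 CPM against 563 to 594 CPM. Mast cell, basophil and eosinophil markers, cells known to carry IL1RL1, were higher in 7 of 8 cases, with sums of 53.9 to 77.3 CPM against 159 to 174 CPM, the opposite direction to *Il1rl1*. Endothelial markers were higher in 8 of 8 cases (197 to 248 CPM against 669 to 733 CPM) and megakaryocyte markers in 6 of 8 (281 to 334 CPM against 549 to 575 CPM). T and NK cell markers were higher in 2 of 8 cases (58.6 to 60.5 CPM against 78.4 to 84.2 CPM). These were *Cd4* and *Nkg7*, and the other 6 summed to 9.34 to 12.7 CPM against 8.13 to 9.63 CPM, with a median log2 fold change of -0.14 over the list. No defining marker of these lists was at 0 in all samples, and the part of these markers in the receptor results was not tested.

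The lower receptors are neighbours. *Il1r2*, *Il1r1*, *Il1rl2*, *Il1rl1*, *Il18r1* and *Il18rap* follow each other on chromosome 1 within 478 kb, all on the plus strand. The first 4 in this order were lower in TranspExer, and the last 2 did not pass. *Il1rl2*, the receptor for IL-36, was 22.6 ± 2.11 CPM in TranspCtrl and 14.4 ± 0.478 CPM in TranspExer (SD, n = 3 each), lower by a log2 fold change of -0.65 (edgeR adjusted p = 0.00276). The IL-18 receptor chains *Il18r1* and *Il18rap* had log2 fold changes of -0.2 (95% interval -0.73 to 0.32, edgeR adjusted p = 0.515) and -0.04 (95% interval -0.28 to 0.21, edgeR adjusted p = 0.816). The interval of *Il18r1*, which had 39 to 79 counts, includes the estimates of *Il1rl2* and *Il1rl1*, so a decrease of that size was not detectable there. None of the tested protein-coding genes on either side was lower. *Map4k4* (log2 fold change 0.16, adjusted p = 0.173) and *Mfsd9* (0.06, 0.77) did not pass. *Rnf149* (0.24, 0.0488), *Creg2* (0.69, 0.0419), *Slc9a2* (1.97, 0.0039) and *Tmem182* (1.93, 0.00261) were higher, the last pair with 4 to 28 counts per sample. On chromosome 2, *Il1b* fell, its neighbour *Il1a* did not pass and *Il1rn*, far from both, was higher.

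**Figure D4:**
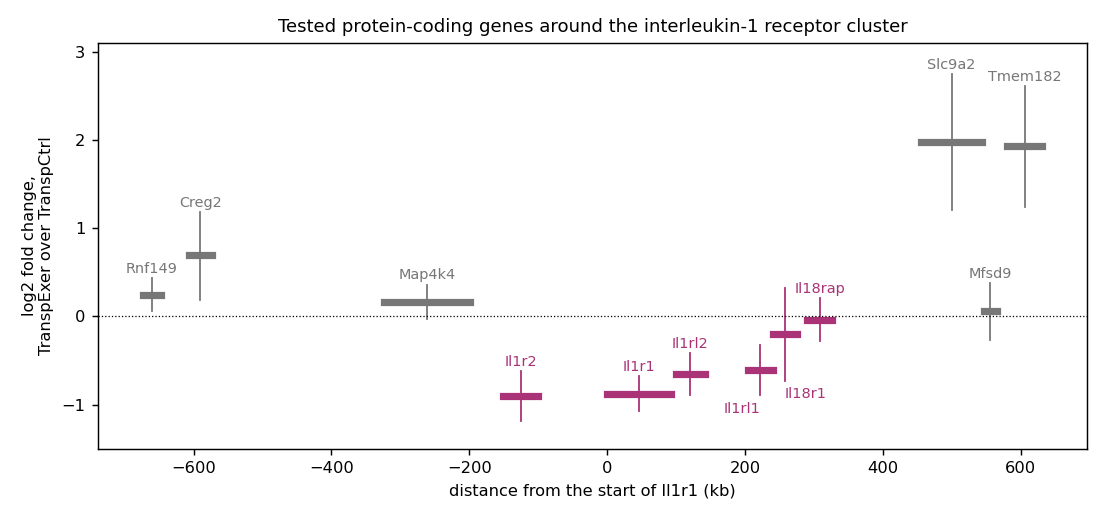
Log2 fold change, TranspExer over TranspCtrl, of the tested protein-coding genes around the receptor cluster, against distance from the start of Il1r1 in kb. Thick bars span each gene, thin lines are 95% intervals from edgeR, and IL-1 family receptors are purple. Il1r2, Il1r1, Il1rl2 and Il1rl1 lie below 0, the intervals of Il18r1 and Il18rap include 0, and no flanking gene (grey) is below 0.

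The 250 bases before the outer start of *Il1r1* (chr1:40224830-40225079) and *Il1rl1* (chr1:40429320-40429569) are shown because both genes fell and these windows hold TTGCNNAA (RefSeq, GRCm38.p6, plus strand, 5′ to 3′). Capitals mark these letters, those of a C/EBP site.
Il1r1: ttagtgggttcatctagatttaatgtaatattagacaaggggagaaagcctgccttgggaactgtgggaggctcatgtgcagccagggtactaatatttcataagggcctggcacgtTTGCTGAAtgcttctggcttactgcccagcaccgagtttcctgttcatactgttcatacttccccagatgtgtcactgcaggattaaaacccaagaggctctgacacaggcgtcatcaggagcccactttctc
Il1rl1: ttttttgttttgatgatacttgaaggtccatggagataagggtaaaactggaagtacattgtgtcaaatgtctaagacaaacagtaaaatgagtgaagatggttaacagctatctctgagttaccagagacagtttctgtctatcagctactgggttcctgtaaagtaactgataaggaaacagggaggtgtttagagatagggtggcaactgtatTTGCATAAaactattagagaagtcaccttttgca
TTGCNNAA began 133 bases before the *Il1r1* start and 34 bases before the *Il1rl1* start. It was found for 4 members (*Il18bp*, *Il1r1*, *Il1rl1* and *Il33*) and in 10.8% of 27025 genes. These members included genes that fell, a gene that did not pass and a gene that was not tested. *Il1b* and *Il1r2*, which also fell, had no TTGCNNAA in their windows, nor did the windows of the inner starts of *Il1r1* and *Il1rl1*. The *Il1r2* window (chr1:40085843-40086092) lay inside the annotated gene, and 108 of its 250 bases were exonic. The *Il18bp* window also lay inside its gene, with all 250 bases exonic. GGNNTTTCC, part of an NF-κB site, was found for *Il1rn* alone and in 5.62% of genes. It lay in the window of an inner *Il1rn* start (chr2:24345121-24345370), of which 83 bases were exonic, and not in the other *Il1rn* windows. The letters describe these windows only.

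Levels were compared between members per kilobase of merged exon length and library size (RPKM). In TranspCtrl the order from the highest was *Il1rn* (49.1 RPKM), *Il18bp* (20.3), *Il18* (9.73), *Il1r2* (6.18), *Il1r1* (6.12), *Il1b* (4.54), *Il1rap* (1.45), *Il1a* (1.37), *Il1rl1* (1.26) and *Il33* (0.0836). The samples overlapped between *Il1r2* and *Il1r1*, *Il1r1* and *Il1b*, *Il1rap* and *Il1a*, and *Il1a* and *Il1rl1*, so these neighbours did not differ beyond their spread. In TranspExer *Il1rn* (59.6 RPKM), *Il18bp* (21.3) and *Il18* (11.1) kept their places. *Il1r1* (3.34) and *Il1r2* (3.3) overlapped, and *Il1b* moved from rank 6 to rank 8 at 1.23 RPKM, beside *Il1rap* (1.57) and *Il1a* (1.61), with *Il1rl1* (0.822) and *Il33* (0.0309) last. The gene length matters for these levels. With the length column of the authors' table, *Il1rn* in TranspCtrl was 137 RPKM and *Il1rap* 3.72 RPKM, and *Il1rl1* (1.64) was above *Il1a* (1.37). In TranspExer with that length, *Il1rap* (4.02) was above *Il1r1* (3.65), and *Il1b* (1.73) was at rank 7, above *Il1a* (1.61), so the drop of *Il1b* to rank 8 depends on the length used.

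Other genes of the pathway were read from a list of 72 genes, of which 62 were tested. Of these, 15 were lower and 16 higher in TranspExer, with 6 and 3 DEGs, and the median log2 fold change was -0.04. These were 24.2% and 25.8% of the tested genes of the list, against 15.5% and 16.6% of all tested genes, and the DEGs were 9.68% and 4.84%, against 5.28% and 3.5%. Without TranspCtrl replicate 1 these counts were 15 and 22. They were 9 and 10 without TranspExer replicate 1, 10 and 8 without TranspExer replicate 2, and 10 and 10 without TranspExer replicate 3. Calls over all genes dropped as well in these last 3 settings, from 2361 lower and 2523 higher to 1325 to 1407 lower and 1315 to 1458 higher.

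Among the remaining ligands and receptors of the family, 5 of 11 were tested, 2 were lower and 1 was higher, or 40% and 20% of those tested, beside 15.5% and 16.6% over all tested genes. With each sample left out in turn, 1 to 2 were lower and 0 to 1 higher. Besides *Il1rl2*, the ligand *Il36g* was lower (3.55 ± 0.409 against 2.41 ± 0.101 CPM, SD, n = 3), with a log2 fold change of -0.56 (edgeR adjusted p = 0.0428). *Sigirr*, a family member that dampens IL-1 and Toll-like receptor signalling, was higher (2.99 ± 0.322 against 4.82 ± 0.784 CPM, SD, n = 3), with a log2 fold change of 0.69 (edgeR adjusted p = 0.0243).

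For the genes that mature the cytokines, 14 were tested, 1 was lower and 3 were higher. The shares were 7.14% lower and 21.4% higher, beside 15.5% and 16.6% over all tested genes. The 3 higher genes were DEGs, 21.4% of this group against 3.5% of all tested genes. Without TranspCtrl replicate 1, 2 genes were lower and 5 higher. The inflammasome sensor *Nlrp1b* was lower, with a log2 fold change of -0.71 (edgeR adjusted p = 0.0375), but this call was lost without TranspExer replicate 1, 2 or 3 (adjusted p = 0.133, 0.104 and 0.0794). Without TranspCtrl replicate 1, its log2 fold change shrank to -0.43 (edgeR adjusted p = 0.0129). *Nlrp3* (-0.16, 0.165), the adaptor *Pycard* (0.05, 0.805) and *Casp1* (-0.12, 0.59), which encodes the protease that cleaves the precursors of IL-1β and IL-18, did not pass. The 3 higher genes encode serine proteases of neutrophil granules that can also cleave IL-1 family precursors. *Elane* was 97.5 ± 22.9 CPM in TranspCtrl and 435 ± 7.68 CPM in TranspExer (SD, n = 3 each), and its log2 fold change was 2.16 (edgeR adjusted p = 0.000105). *Ctsg* and *Prtn3* rose by 1.88 (4.54e-05) and 1.79 (2.35e-05) on the log2 scale. *Elane*, *Ctsg* and *Prtn3* each stayed a DEG with any 1 sample left out, with log2 fold changes of 1.75 to 2.33. These genes are known from immature neutrophils, whereas of the neutrophil markers *Ly6g* was lower (-0.54, 0.0375) and *S100a8* (-0.17, 0.681) and *S100a9* (-0.07, 0.841) did not pass. In the rest of that list *Csf3r* was higher (0.53, 0.00161) and *Cxcr2* lower (-0.56, 0.0131). The part of cell composition in these results was not tested.

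Of 21 genes of receptor-proximal signalling, all were tested, 8 were higher, 1 was lower and the median log2 fold change was 0.1. This was 38.1% higher and 4.76% lower, beside 16.6% and 15.5% over all tested genes. The number of higher genes moved with the samples used. It was 12 without TranspCtrl replicate 1, 5 without TranspCtrl replicate 3, 4 without TranspExer replicate 1 and 3 without TranspExer replicate 2 or 3. Higher calls over all genes moved as well, from 2523 to 3417 without TranspCtrl replicate 1 and 2032 without TranspCtrl replicate 3. They were 1315 to 1458 without a TranspExer sample. The higher genes included the kinases *Irak2* (log2 fold change 0.48, edgeR adjusted p = 0.00572) and *Irak4* (0.47, 0.00404), the ubiquitin-conjugating cofactor *Ube2v1* (0.56, 0.0405) and the NF-κB subunit *Rela* (0.58, 0.0401). TranspCtrl replicate 1 was far the lowest sample for *Ube2v1* (116 CPM against 184 and 190 in its group) and *Rela* (56 against 93.4 and 90), which enlarged both changes. *Ikbkg*, which encodes the regulatory subunit of the IκB kinase, fell by 0.4 on the log2 scale (0.00432). The adaptor *Myd88* did not pass (0.1, 0.449). None of these 9 genes was a DEG.

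IL-1 response genes had the largest number of lower calls among the role groups. Of 26 listed, 22 were tested, 11 were lower and 4 higher, 6 of the lower genes were DEGs, and the median log2 fold change was -0.55 against -0.02 over all tested genes. Lower calls were 50% of the tested genes of the list and lower DEGs 27.3%, beside 15.5% and 5.28% over all tested genes, whereas the 18.2% that were higher lay near the 16.6% over all tested genes. These genes also respond to other stimuli, so the list is not specific to IL-1. *Csf2*, the growth factor GM-CSF, was counted 16, 13 and 14 times in the TranspCtrl samples against 1, 4 and 0 in the TranspExer samples, with a log2 fold change of -2.89 (edgeR adjusted p = 0.0145). The neutrophil-attracting chemokines *Cxcl5* and *Cxcl1* had log2 fold changes of -2.04 (0.00129) and -1.78 (0.0277), and the monocyte-attracting chemokine *Ccl7* of -1.13 (0.00259). For *Cxcl1*, the counts of 50, 18 and 19 in TranspCtrl and 8, 7 and 8 in TranspExer show TranspCtrl replicate 1 as the highest, as for *Il1b*. This held for all 6 lower DEGs of the list and for 10 of the 11 lower genes. Without TranspCtrl replicate 1, 11 genes were lower and 4 higher, 3 of the lower genes were DEGs, and the median log2 fold change was -0.36. Leaving out a TranspExer sample gave 7 (without replicate 1) or 8 lower genes and 3 or 4 lower DEGs. *Lyz2* and the neutrophil markers *S100a8* and *S100a9* were also highest in TranspCtrl replicate 1, and the part of cell composition in the response genes was not tested. The 4 higher genes were *Nos2*, which encodes inducible nitric oxide synthase (0.91, 0.0077), the adhesion molecule *Vcam1* (0.65, 0.000726), the mRNA-degrading regulator *Zc3h12a* (0.39, 0.0126) and *Lcn2* (0.34, 0.0162). *Il6*, with 6 to 15 counts per sample, did not pass (-0.02, 95% interval -1.15 to 1.1).

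**Figure D5:**
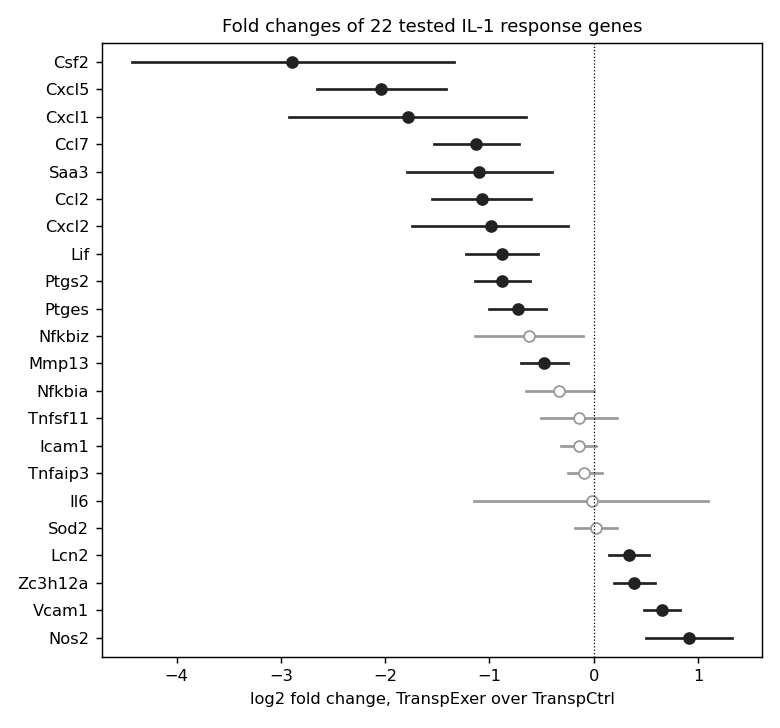
Log2 fold change of the 22 tested IL-1 response genes, TranspExer over TranspCtrl, ordered by value, with 95% intervals from edgeR. Black filled points passed at an adjusted p-value under 0.05 and grey open points did not. In all, 11 genes from Csf2 to Mmp13 passed below 0 and 4, ending with Nos2 at 0.91, passed above it. Nfkbiz (-0.62) lies between Csf2 and Mmp13 but did not pass.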

How the data were processed

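RNA-Seq of BM MSCs from 3 TranspCtrl and 3 TranspExer samples was analysed, grouped by the sample labels. The authors deposited estimated counts per gene, not normalized, of which 10.1% to 12.2% per sample were not whole. The submitters' processing notes name the build mm10. The aligner, the counting tool and the strand setting are not given in the sources used here. The labels name a stranded kit and the study's methods a TruSeq kit.

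Counts were rounded and tested with edgeR 4.0.16 (filterByExpr, TMM, quasi-likelihood test, condition as the only term) in R 4.3.3, with Benjamini-Hochberg adjustment over 15190 genes. Intervals are 95% intervals of the log2 fold change. CPM used TMM-scaled library sizes. Ratios were tested with an exact two-sided permutation test after adding 0.5 counts. Coordinates, exon lengths and overlaps came from GENCODE M21, and promoters from RefSeq. The tests were checked on simulated data.

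The 10 members, the 72 pathway genes and the marker lists were chosen with earlier results of these data known. All members are named, with up to 4 passing pathway genes of the largest change per role and direction, and the first 3 markers of a list beside a member's result. Other genes were named after their values were seen (*Lyz2*, *Ccr2*, *Mrc1*, *Ly6c2*, *Csf3r*, *Cxcr2*, *Cd4*, *Nkg7*, *Il18r1*, *Il18rap*, *Nlrp3*, *Pycard*, *Casp1*, *Myd88*, *Il6* and the genes that flank the receptor cluster). Alternatives were DESeq2 1.42.0, other scalings and filters, the fold of 2 tested in the model, the replicate number as a block and each sample left out. The deposited gene length was added after the data were seen.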

Additional observations from a re-analysis of the deposited data

How the results depend on the processing

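Of 117 member fold changes under 13 alternatives each, 96 kept their direction and their side of the threshold. With the fold of 2 tested in the model, 0 members were lower and 0 higher, and 1 pathway gene was lower and 3 higher. The 1 higher member, *Il1rn*, became 0 with upper-quartile scaling, scaling by library size, no filter on low counts, a filter of 1 CPM and the replicate block. *Il18bp* turned to -0.02 with upper-quartile scaling and scaling by library size, and ranged from -0.01 (without TranspCtrl replicate 3 or TranspExer replicate 1) to 0.18 with each sample left out in turn. Over the same settings, 3 to 4 members were lower and 0 to 2 higher, and 9 to 15 pathway genes were lower and 8 to 22 higher. The log2 difference in the *Il1r2* to *Il1r1* ratio ranged from -0.11 to 0.06, that of *Il1rn* to *Il1b* from 1.55 to 2.38 and that of *Il18bp* to *Il18* from -0.22 to -0.04. The cause was not tested.

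Deviations from the group mean of samples with equal replicate numbers correlated at 0.02, 0 and 0.04, and not every sample was closest to its own number. With 3 samples per group, these values cannot exclude a pairing. With the replicate block, 4 members were lower, 0 were higher, and *Il1rn* had an adjusted p of 0.0692 (edgeR), while 13 pathway genes were lower and 15 higher. Depth limited *Il33*, for which no test with the low-count filter could be made.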
